A study of Rattus norvegicus with 38 samples.

Results

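Complement C3, ceruloplasmin (Cp) and the beta and gamma chains of fibrinogen (Fgb, Fgg) are acute phase genes, and their RNA was followed in 38 rat kidneys. The 4 genes were taken by their Ensembl identifiers, which are ENSRNOG00000046834 for C3, ENSRNOG00000011913 for Cp, ENSRNOG00000007092 for Fgb and ENSRNOG00000025074 for Fgg. All 4 were among the 30207 genes of the deposited table. The table holds identifiers without names, so the pairing of these identifiers with their names rests on the list that defined the genes. Total kidney RNA was sequenced from the 3' end after 7 weeks of treatment. The 8 control rats received vehicle. Anti-Fx1A alone was given to 10 rats at 2.5 mL/kg and L-NAME alone to 10 rats at 20 mg/kg per day. Both agents were given together to 10 rats, with anti-Fx1A at 2.0 mL/kg and L-NAME at 20 mg/kg per day, the latter dose being written in duplicate in the label. Differences between the combination and anti-Fx1A alone therefore include a lower antiserum dose. The labels give no strain, sex, age, batch or litter, and each rat has its own number, 1 to 38, running in the order of the groups. P-values measure the spread between these animals.

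Anti-Fx1A is antibody raised against rat tubular brush border antigens and is used to induce Heymann nephritis, in which immune deposits form under the podocytes and complement is activated. L-NAME blocks nitric oxide synthases and raises blood pressure. C3 is the component on which all complement pathways converge: its cleavage releases C3a, a ligand of an inflammatory receptor, and C3b, which tags surfaces. Ceruloplasmin carries copper in plasma and oxidises ferrous iron for loading onto transferrin. Fibrinogen is built from alpha, beta and gamma chains, encoded by Fga, Fgb and Fgg, and thrombin turns it into fibrin. The liver is the main source of these proteins, where interleukin 6, acting through STAT3 and C/EBP factors, raises their transcription, and kidney tubule cells express C3 and fibrinogen chains after injury. In whole kidney RNA, a change in the number of cells of a type and a change in RNA per cell cannot be told apart. No other gene, marker genes of liver, blood, kidney and leukocytes included, could be matched to an identifier, so the tissue label was not checked against markers, and the part of other cell types in the results was not tested.

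The bases before the starts of the 4 genes are shown because all 4 rose in the combination group, with letters of the acute phase motifs in capitals. These are RefSeq sequences of the GRCr8 build, matched by symbol for 4 of 4 genes, 5′ to 3′ on the strand of the gene. For C3 (chr9:2201340-2201589, minus strand) and Fgb (chr2:170700876-170701125, minus strand) all 250 bases before the start are given. Capitals mark, in C3, TTGCNNAA (C/EBP type) and then CTGGGAA (interleukin 6 response type), and, in Fgb, TTCNNNGAA (STAT type), CTGGGAA and TTGCNNAA.
C3: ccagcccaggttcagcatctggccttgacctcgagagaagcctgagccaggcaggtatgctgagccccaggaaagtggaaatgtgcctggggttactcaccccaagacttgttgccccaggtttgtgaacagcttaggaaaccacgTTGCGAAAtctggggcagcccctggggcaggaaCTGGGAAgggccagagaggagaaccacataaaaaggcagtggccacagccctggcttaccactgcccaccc
Fgb: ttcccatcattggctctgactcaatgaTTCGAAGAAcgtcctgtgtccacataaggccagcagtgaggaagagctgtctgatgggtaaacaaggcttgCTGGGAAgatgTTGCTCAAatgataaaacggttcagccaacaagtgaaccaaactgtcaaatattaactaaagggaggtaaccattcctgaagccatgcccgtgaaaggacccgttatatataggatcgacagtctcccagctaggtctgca
For Cp and Fgg, whose annotated genes begin upstream of the start used for the window, stretches of 30 bases around the matches are given. They lie at chr2:104368587-104368616 for Cp and at chr2:170652903-170652932 and chr2:170653011-170653040 for Fgg, all on the plus strand.
Cp: attatttactcTTGTGCAAcattaaattgt
Fgg, distal: gtgtgcaaaatCTGGGAAtccctcggagca
Fgg, proximal: tcccgcccagaCTGGGAAttcatataaagg

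Each motif was searched on both strands in the 250 bases before the start. CTGGGAA stood in 3 of the 4 genes, once in C3 and Fgb and at 2 places in Fgg, and in 9.56% of 33469 promoters of the RefSeq table. TTGCNNAA stood in C3, Cp and Fgb, in Cp on the opposite strand, and in 9.22% of promoters. TTCNNNGAA stood in Fgb alone of the 4 and in 7.67% of promoters. The NF-kB type, GGG and CC with any 5 bases between, stood in C3 and Fgg and in 42.3% of promoters, and in C3 one of its matches overlaps CTGGGAA. The HNF1 type, GTTAAT and TTAA with any 2 bases between, stood in 0 of the 4 and in 0.09% of promoters. No mismatch was allowed for any motif, so a site that differs in a fixed letter was not counted. In Fgb the CTGGGAA and TTGCNNAA matches begin 152 and 141 bases before the start, and in C3 they begin 71 and 104 bases before it. In the RefSeq order of genes Fga lies between Fgg and Fgb. These are matches of letters and no measure of binding.

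**Figure D1:**
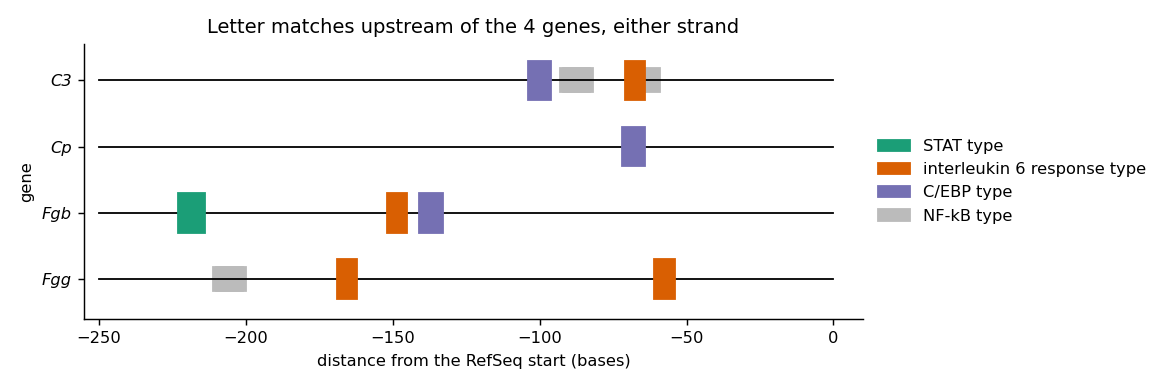
Position of motif matches in the 250 bases before the RefSeq start of each gene, in bases from the start (0). Coloured boxes are matches on either strand, and the interleukin 6 response type stands in C3, Fgb and Fgg, the C/EBP type in C3, Cp and Fgb.

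Depth lay between 4120902 and 7728848 reads per library, recovered from the deposited values. Levels are given as rpm, the reads of a gene per 1000000 reads of its library. A read comes from the 3' end of a transcript, so gene length does not scale these levels. Several libraries stood apart from their groups across all genes. When each library was weighted by its scatter around the group, vehicle animal 1 (weight 0.279), L-NAME animal 25 (0.294) and anti-Fx1A animal 10 (0.300) had the lowest weights of the 38, and the next lowest was 0.568. L-NAME animal 25 and anti-Fx1A animal 10 also carried the highest C3, Fgb and Fgg of their groups, so the comparisons are also given without these 3 libraries. The 3 were picked by their scatter in the same data, and no combination library is among them. A difference that passes only without them is therefore no independent support. The anti-Fx1A group also fell into 2 runs of animal numbers. Animals 9 to 12 had 4434855 to 5228067 reads and 18.2% to 25.7% of them in the library's 10 most abundant genes, and animals 13 to 18 had 6454754 to 7119831 reads and 30.1% to 38.4%. Their values on the second principal component of all genes tested did not overlap either, at 15.5 to 44.9 and -20.1 to -6.18. No label says what sets these runs apart, and fits without each of them were added after the data were seen.

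Cp was by far the most abundant of the 4 in 3' end reads. Its level was 83.8 to 151 rpm with vehicle (median 92.1), 79.4 to 353 after anti-Fx1A (median 116), 95.6 to 329 after L-NAME (median 127) and 134 to 396 after both agents (median 199). On the deposited log2 scale the vehicle maximum was exceeded by 8 of 10 combination kidneys, 2 of 10 of anti-Fx1A and 3 of 10 of L-NAME. In rpm, combination animal 38, at 140, lay under the vehicle maximum instead, and anti-Fx1A animal 9, at 158, lay above it. Every treated group overlapped with vehicle on both scales. The lowest combination animals were 36 and 30, at 134 and 136 rpm, and the highest were 35 and 33, at 396 and 369. Within the anti-Fx1A group, animals 9 to 12 lay at 128 to 353 rpm, with animal 10 the highest, and animals 13 to 18 at 79.4 to 120, without overlap in rpm. The runs did overlap on the deposited log2 scale, where animal 11, at 9.49, lay under animals 15 and 17, at 9.50 and 9.63. In the L-NAME group animals 23 and 25 stood at 329 and 292, while the others reached no more than 158. On the deposited log2 scale the mean level of Cp was 9.31 ± 0.25 in vehicle kidneys (SD, n = 8), against 9.61 ± 0.51 after anti-Fx1A, 9.80 ± 0.49 after L-NAME and 10.27 ± 0.48 after both (n = 10 in every treated group).

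C3 was a low signal in whole kidney, with 4 to 188 reads per library. Its level was 0.772 to 8.41 rpm with vehicle (median 2.34) and 2.53 to 35.96 after anti-Fx1A (median 3.60). It was 1.99 to 16.3 after L-NAME (median 4.95) and 4.13 to 21.4 after both agents (median 6.42). Vehicle animal 3, at 8.41, was well above the other vehicle animals, of which the next was animal 7 at 3.89. All combination animals exceeded that second vehicle animal, and 4 of 10 exceeded animal 3, namely animals 29, 31, 34 and 35. With anti-Fx1A, 1 of 10 animals lay above the vehicle range, which was animal 10 with 188 reads, and the others had 13 to 27. L-NAME likewise had 1 of 10 above it, animal 25 with 101 reads. Mean log2 level was 5.56 ± 0.43 in vehicle kidneys (SD, n = 8), against 5.95 ± 0.66 after anti-Fx1A, 5.97 ± 0.44 after L-NAME and 6.36 ± 0.48 after both (n = 10 in every treated group).

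Fgb, the beta chain of fibrinogen, was close to silent in most vehicle kidneys and varied widely between treated animals. Vehicle libraries held 0 to 55 reads (median 3), and 2 of 8 had 0 reads, where a count of 0 allows up to 3 reads, or 0.388 to 0.728 rpm across the depths of the 38 libraries. The 55 reads were those of vehicle animal 7, and the other vehicle animals had at most 6. Anti-Fx1A libraries held 2 to 164 reads (median 7.5), L-NAME libraries 4 to 883 (median 10.5) and combination libraries 12 to 1131 (median 51.5). Median levels were 0.524, 1.14, 1.98 and 8.50 rpm in the order vehicle, anti-Fx1A, L-NAME and combination. All 10 combination animals had more reads than 7 of the 8 vehicle animals, and 5 of 10 lay above vehicle animal 7 in rpm. Within the anti-Fx1A group Fgb was 2.09 to 31.4 rpm in animals 9 to 12 and 0.281 to 1.24 in animals 13 to 18, without overlap.

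The reads of Fgb were concentrated in single animals in every group. Vehicle animal 7 held 76.4% of the Fgb reads of its group, anti-Fx1A animal 10 held 68.6%, L-NAME animal 25 held 75.1% and combination animal 29 held 63.1%. In the L-NAME group the highest animals were 25 and 23, with 883 and 200 reads, and the others had 4 to 30. In the combination group animals 29, 35 and 33 had 1131, 293 and 118 reads, and the lowest, animals 30, 36 and 38, had 12, 14 and 16. On the log2 scale the means were 4.94 ± 0.67 in vehicle kidneys (SD, n = 8), against 5.44 ± 0.83 after anti-Fx1A, 5.98 ± 1.495 after L-NAME and 6.74 ± 1.42 after both (n = 10 in every treated group). The SD of Fgb within groups was 1.18 log2 units, higher than in 99.8% of the 12599 genes tested, whose median was 0.23. Those of C3 and Cp, at 0.52 and 0.45, were higher than in 96.0% and 93.8% of genes.

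Fgg, the gamma chain, was barely detected, with 172 reads in all 38 libraries against 3278 for Fgb. Vehicle libraries held 0 to 3 reads, and 6 of 8 had 0. At least 1 read was found in 6 of 10 kidneys after anti-Fx1A, 10 of 10 after L-NAME and 9 of 10 after both, with medians of 1, 3 and 5 reads. The highest were anti-Fx1A animal 10 with 26 reads, L-NAME animal 25 with 25 and combination animal 29 with 34, the same animals that led their groups for Fgb and C3. Fgb exceeded Fgg in 34 of 38 animals, and the ratio of their summed reads was 14.4 for vehicle, 6.29 for anti-Fx1A, 20.98 for L-NAME and 24.5 for both agents. The sums rest largely on single animals, and reads are taken from the 3' end, so the ratios are those of the counts as deposited and no test was made of them. The mean log2 level of Fgg over the 38 animals was 4.80, under the limit of 5.32 for testing. C3, Cp and Fgb passed that limit and Fgg did not, so Fgg was tested in a fit without it, over 22198 genes.

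**Figure D2:**
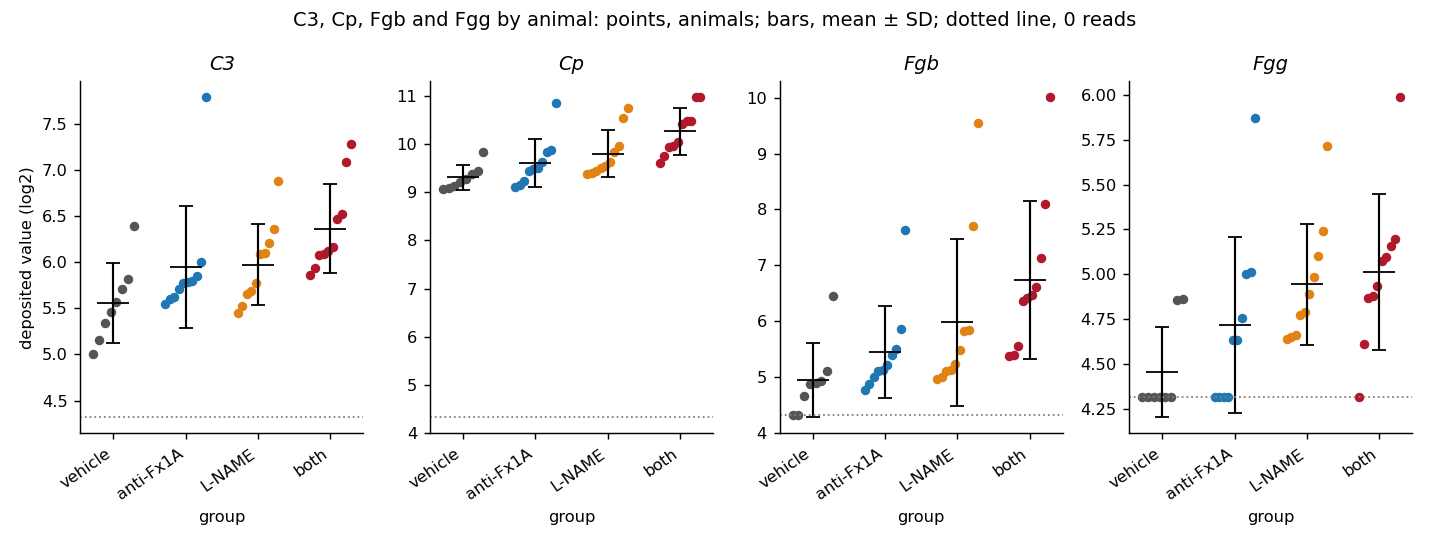
Deposited log2 value of each gene by group (both, anti-Fx1A with L-NAME); points are animals, bars the mean and SD of 8 or 10 animals, and the dotted line the value of 0 reads, 4.32. The mean of each gene is lowest in vehicle and highest in the combination, with L-NAME above anti-Fx1A between them, and single animals stand far above their group, such as combination animal 29 for Fgb at 10.01.

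The combination was compared with vehicle for the effect of both agents together, and all 3 genes tested there rose. Among all 12599 genes 18.4% were higher (limma, adjusted p under 0.05), and the median difference was 0.95 log2 units over C3, Cp and Fgb against -0.013 over all genes. Fgb rose most on the deposited scale, by 1.80 log2 units (SE 0.55, 95% interval 0.68 to 2.92, limma adjusted p = 0.0107), with the range of adjusted p over 49 alternatives from 0.00208 to 0.0241. Cp rose by 0.95 (SE 0.21, 95% interval 0.54 to 1.37, adjusted p = 0.000434), that is 1.94-fold. C3 rose by 0.80 (SE 0.24, 95% interval 0.33 to 1.28, adjusted p = 0.00744). Each of these calls was kept when any of the 38 animals was left out. Without the 3 libraries of lowest weight the differences were 1.82 for Fgb, 0.92 for Cp and 0.75 for C3 (adjusted p = 0.00208, 0.000105 and 0.000713).

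Fgg, fitted without the limit on low values, rose by 0.56 log2 units in the combination (SE 0.18, limma adjusted p = 0.0223), where 10.8% of 22198 genes were higher. That call was lost without combination animal 29, which held 34 of the 73 reads of its group (0.45, adjusted p = 0.0561). Without the 3 libraries of lowest weight it was 0.54 (adjusted p = 0.00737).

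The deposited scale is compressed near 0 reads, so the recovered reads were also tested, with limma's voom. The differences of the combination from vehicle became 4.19 log2 units for Fgb (adjusted p = 0.0173), 2.31 for Fgg (0.0110) and 1.57 for C3 (0.00778), each more than 1.5 times its value above. For Cp, the abundant gene, it was 0.997 (adjusted p = 0.000476), close to the deposited scale. The same 4 calls were made on both scales. Among the 12599 genes above the limit on low values, voom called 4296 in this comparison. In median rpm the combination stood at 16.2 times vehicle for Fgb, 2.74 times for C3 and 2.16 times for Cp. The vehicle median of Fgb, 0.524 rpm, lies within the 0.388 to 0.728 rpm that a count of 0 allows, so its ratio is poorly determined. The sizes of the voom differences for Fgg and Fgb are poorly determined too, since 6 of 8 and 2 of 8 vehicle libraries held 0 of their reads.

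Neither single treatment passed for these genes. L-NAME alone against vehicle called 0 of the 3 (limma; 0 with voom, and 1 of 3 at an unadjusted p under 0.05), where 7.91% of all genes were higher. Of the 12599 genes, 3622 had an unadjusted limma p under 0.05 in either direction, and voom called 1708. Cp was 0.49 log2 units above vehicle with L-NAME (SE 0.21, 95% interval 0.074 to 0.90, adjusted p = 0.104), C3 0.42 (adjusted p = 0.244) and Fgb 1.04 (SE 0.55, 95% interval -0.083 to 2.16, adjusted p = 0.215). In the fit without the limit 3.82% of genes were higher. There Fgg was 0.49 above vehicle (adjusted p = 0.0958), and this passed in the fit of these groups alone (adjusted p = 0.0493), with voom (2.15, adjusted p = 0.0483) and without anti-Fx1A animal 10, which changes only the estimate of the spread (adjusted p = 0.0449). Leaving out L-NAME animal 25, in which 883 of the group's 1175 Fgb reads lay, gave the lowest Fgb difference of any animal left out, 0.64. With the 3 libraries of lowest weight left out, the differences were 0.26 for C3, 0.38 for Cp, 0.66 for Fgb and 0.39 for Fgg (adjusted p = 0.349, 0.179, 0.376 and 0.145).

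Anti-Fx1A alone against vehicle also called 0 of the 3 (limma; 0 with voom, and 0 at an unadjusted p under 0.05), and 0.929% of all genes were higher. An unadjusted limma p under 0.05 was found for 1837 of 12599 genes in either direction, and voom called 115. The differences were 0.39 log2 units for C3 (95% interval -0.084 to 0.87, adjusted p = 0.469), 0.30 for Cp (-0.11 to 0.72, adjusted p = 0.546), 0.50 for Fgb (-0.62 to 1.62, adjusted p = 0.744) and 0.27 for Fgg (adjusted p = 0.658), in whose fit 0.432% of genes were higher. Leaving out animal 10 gave 0.19 for C3, 0.16 for Cp, 0.26 for Fgb and 0.14 for Fgg. Leaving out the 3 libraries of lowest weight gave 0.13, 0.13, 0.28 and 0.12. Against the same vehicles, animals 13 to 18 gave 0.17 for C3, 0.033 for Cp, 0.068 for Fgb and 0.043 for Fgg. Animals 9 to 12 gave 0.73, 0.70, 1.15 and 0.60 in the same order, and none passed (lowest adjusted p = 0.0800, for Cp). For C3 the interval reaches past the 0.80 seen in the combination. For Fgb it reaches 1.62 and for Cp 0.72, under the 1.80 and 0.95 of the combination. All of these intervals leave room for a rise, so a p that missed the threshold does not show that the antiserum left the genes as they were. The single treatments and the combination share the vehicle animals.

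**Figure D3:**
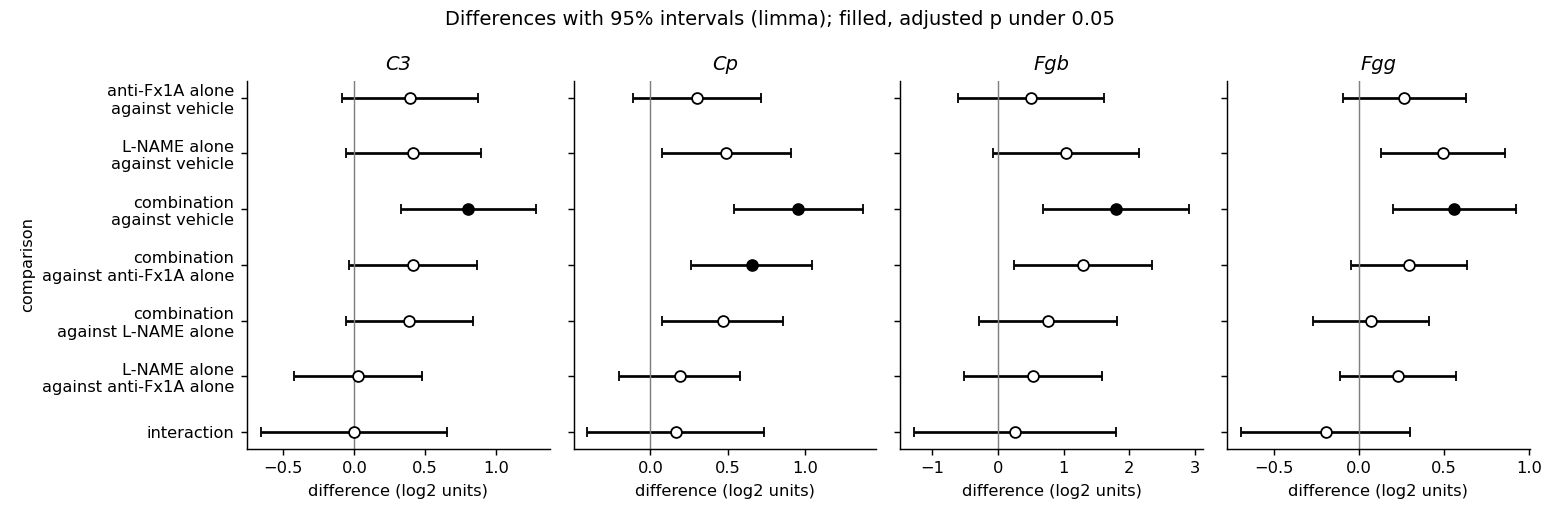
Differences of each gene in log2 units of the deposited scale with 95% intervals from limma (38 animals; Fgg from the fit without a limit on low values); filled points have an adjusted p under 0.05. The filled points are the combination against vehicle for all 4 genes and the combination against anti-Fx1A alone for Cp, at 0.65.

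The combination was set against each single treatment. It differs from anti-Fx1A alone in antiserum dose (2.0 against 2.5 mL/kg) as well as in L-NAME. Against anti-Fx1A alone, Cp alone of the 3 was higher, by 0.65 log2 units (SE 0.19, 95% interval 0.26 to 1.05, limma adjusted p = 0.0177), where 9.49% of all genes were higher. That call was lost when anti-Fx1A animals 13 to 18 were left out (0.25, adjusted p = 0.490) and kept when animals 9 to 12 were (0.92, adjusted p = 0.00177). Fgb was 1.30 higher (SE 0.52, 95% interval 0.24 to 2.35) and did not pass (adjusted p = 0.0733), and neither did C3 at 0.41 (adjusted p = 0.183) or Fgg at 0.29 (adjusted p = 0.302, in a fit with 4.50% of genes higher). Without anti-Fx1A animal 10 both Fgb (1.54, adjusted p = 0.0294) and C3 (0.62, adjusted p = 0.0113) passed. Without the 3 libraries of lowest weight the same values had adjusted p of 0.00858 and 0.00454, and Fgg passed as well (0.42, adjusted p = 0.0393). Among genes above the limit 3492 were then called in either direction, against 2428 with all animals. Fgb also passed without L-NAME animal 25, which is in neither group and enters only through the spread (1.30, adjusted p = 0.0332). Without animals 9 to 12 the differences of C3, Fgb and Fgg were 0.64, 1.73 and 0.52 (adjusted p = 0.0310, 0.0478 and 0.0498), and without animals 13 to 18 they were 0.074, 0.64 and -0.039, none passing. How the combination stood to anti-Fx1A alone therefore depended on which run of animals entered.

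Against L-NAME alone 0 of the 3 passed (limma; 0 with voom, and 1 of 3, Cp, at an unadjusted p under 0.05), with 0.833% of all genes higher. Over all 12599 genes, 1968 had an unadjusted limma p under 0.05 in either direction, and voom called 129. The differences were 0.47 log2 units for Cp (SE 0.19, 95% interval 0.074 to 0.86, adjusted p = 0.228), 0.39 for C3 (adjusted p = 0.396), 0.76 for Fgb (95% interval -0.29 to 1.82, adjusted p = 0.497) and 0.068 for Fgg (adjusted p = 0.928, in a fit with 0.324% of genes higher). Without the 3 libraries of lowest weight Cp (0.55, adjusted p = 0.0354) and C3 (0.49, adjusted p = 0.0491) passed. The difference of Fgb became 1.16 (adjusted p = 0.0817), and with combination animal 29 left out instead it was 0.40. Leaving out the 3 libraries raised the genes called in either direction from 151 to 1155. It removed L-NAME animal 25, highest of its group for C3, Fgb and Fgg, and no combination animal.

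L-NAME alone and anti-Fx1A alone were not told apart by any of the genes, with 0 of 3 called (limma; 0 with voom, and 0 at an unadjusted p under 0.05) and 0.135% of all genes higher with L-NAME. Here 1389 of 12599 genes had an unadjusted limma p under 0.05 in either direction, and voom called 49. The differences were 0.025 log2 units for C3 (95% interval -0.42 to 0.47), 0.19 for Cp (-0.20 to 0.58), 0.53 for Fgb (-0.52 to 1.59) and 0.23 for Fgg (-0.12 to 0.57), in whose fit 0.0225% of genes were higher. Leaving out a single animal moved Fgb between 0.14, without L-NAME animal 25, and 0.78, without anti-Fx1A animal 10, and Cp between 0.082, without L-NAME animal 23, and 0.33, without anti-Fx1A animal 10. When the 3 libraries of lowest weight were left out, the differences were 0.13 for C3, 0.24 for Cp, 0.38 for Fgb and 0.27 for Fgg. All 4 turned negative without anti-Fx1A animals 13 to 18. With all animals, no pair of neighbours in the order of the group means passed the adjusted threshold for any of the 4 genes, although the interval for Cp between L-NAME and the combination, 0.074 to 0.86, lay above 0. The effect of L-NAME with anti-Fx1A minus its effect without it was -0.0044 for C3 (95% interval -0.66 to 0.65), 0.16 for Cp (-0.41 to 0.74), 0.26 for Fgb (-1.28 to 1.80) and -0.20 for Fgg (-0.70 to 0.30), and none passed. It was, without the 3 libraries of lowest weight, 0.36, 0.42, 0.88 and 0.036. Among all genes 0 (0.00%) were called for this interaction, with or without the limit on low values (limma, and 0 with voom), with 1102 at an unadjusted p under 0.05. That count depended on the libraries used, at 37 with library weights and 41 without the 3 libraries of lowest weight. It was 36 without anti-Fx1A animals 9 to 12 and 395 without animals 13 to 18. The intervals are wide, and the antiserum doses were unequal.

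**Figure D4:**
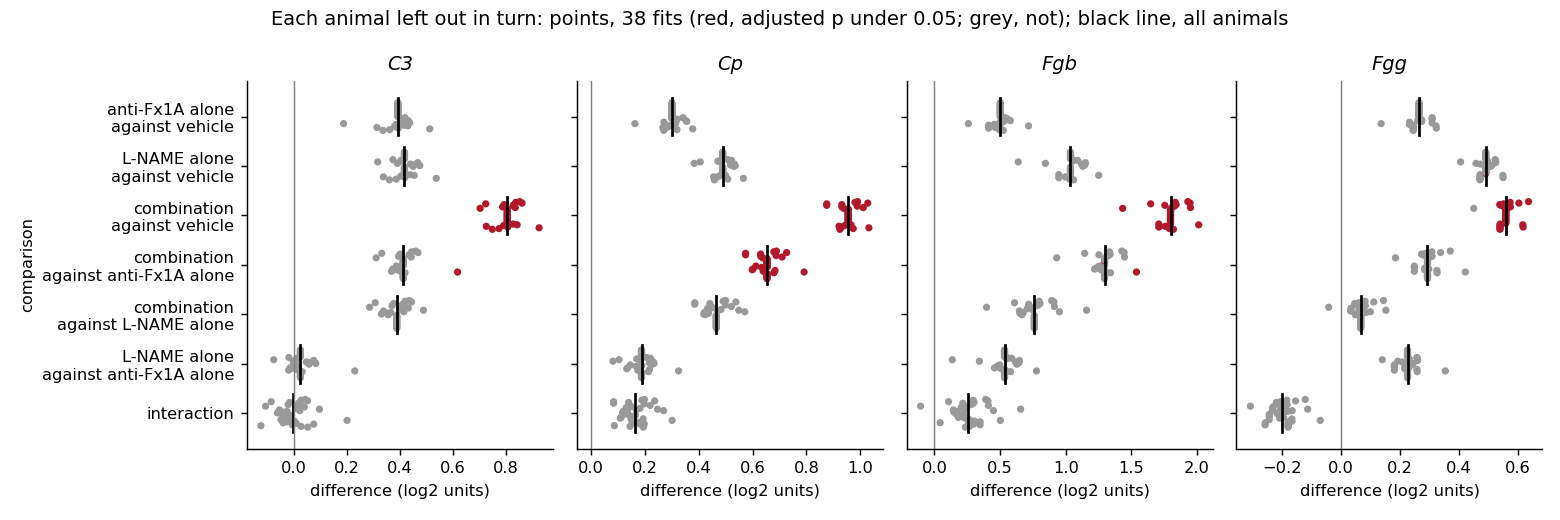
Differences in log2 units when each of the 38 animals is left out in turn (points, spread vertically only for display; red, adjusted p under 0.05) beside the value with all animals (black line). For Fgb in the combination against vehicle the values run from 1.43 to 2.01 and stay red, and for Fgb and C3 against anti-Fx1A alone the points without anti-Fx1A animal 10 lie at 1.54 and 0.62.

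Animals high for one of the genes tended to be high for the others within the same group. Anti-Fx1A animal 10 ranked first of its 10 for all 4 genes, and anti-Fx1A animal 9 ranked second for C3, Fgb and Fgg and was in place 3 for Cp. L-NAME animal 25 was first for C3, Fgb and Fgg and second for Cp, behind animal 23. Combination animal 29 was first for C3, Fgb and Fgg and in place 5 for Cp, while animal 35 was second for C3, Cp and Fgb and in place 5 for Fgg. In the vehicle group the leaders differed, with animal 3 highest for C3 and Cp and animal 7 for Fgb.

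With values centred on the group mean, the 6 pairs of genes were correlated over the 38 animals. Pearson's r was 0.76 for C3 and Cp (Spearman's rho 0.71), 0.75 for C3 and Fgb (rho 0.61), 0.72 for Cp and Fgb (rho 0.74) and 0.77 for Fgb and Fgg (rho 0.49). It was 0.71 for C3 and Fgg (rho 0.50) and 0.60 for Cp and Fgg (rho 0.47). Adjusted permutation p of r ranged from 3e-05, near the smallest that 100000 permutations within groups can give, to 0.00085, and that of rho from 6e-05 to 0.00664. Leaving out the 2 animals farthest from the median of the first gene of each pair gave r of 0.70, 0.68, 0.64, 0.64, 0.45 and 0.44 in the order above. For Cp and Fgg, the r of 0.44 without them had a permutation p of 0.0170 and the rho of 0.30 one of 0.104.

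Taken group by group, the relations differed in size and rested on few animals in places. Between C3 and Cp, r was 0.86 for vehicle (adjusted permutation p = 0.0290 over 24 relations) and 0.39 without vehicle animals 3 and 5. It was 0.92 for anti-Fx1A (0.0110), 0.67 for L-NAME (0.0569) and 0.63 for both agents (0.0730). Between C3 and Fgb, r was 0.94 with anti-Fx1A (rho 0.41), 0.87 with L-NAME (rho 0.93) and 0.90 with the combination (rho 0.82), with adjusted permutation p of r of 0.0311, 0.0110 and 0.0110 over 24 relations. With vehicle it was 0.16 (rho -0.036, adjusted permutation p = 0.713), where Fgb had 0 to 6 reads in 7 of 8 animals. The rho passed for L-NAME (adjusted permutation p = 0.00816) and not for anti-Fx1A (0.329) or the combination (0.0610). Without the 2 animals farthest from the median of C3, r was 0.71 for anti-Fx1A, 0.69 for L-NAME and 0.58 for both agents. Between Cp and Fgb, r was 0.19 with vehicle (rho 0.14), 0.91 with anti-Fx1A (rho 0.54), 0.86 with L-NAME (rho 0.60) and 0.61 with the combination (rho 0.75), with adjusted permutation p of r of 0.687, 0.0223, 0.0282 and 0.0730, and rho passed in 0 of the 4 groups. Without the 2 animals farthest from the median of Cp, r of that pair fell to 0.59 with anti-Fx1A and to 0.41 with L-NAME and was 0.62 with the combination, so the first 2 of these rest in part on few animals. Between Fgb and Fgg, r with anti-Fx1A was 0.84 with all animals and -0.062 without animals 9 and 10, and with L-NAME it was 0.86 and, without animals 23 and 25, -0.17, so there it rests on those animals.

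**Figure D5:**
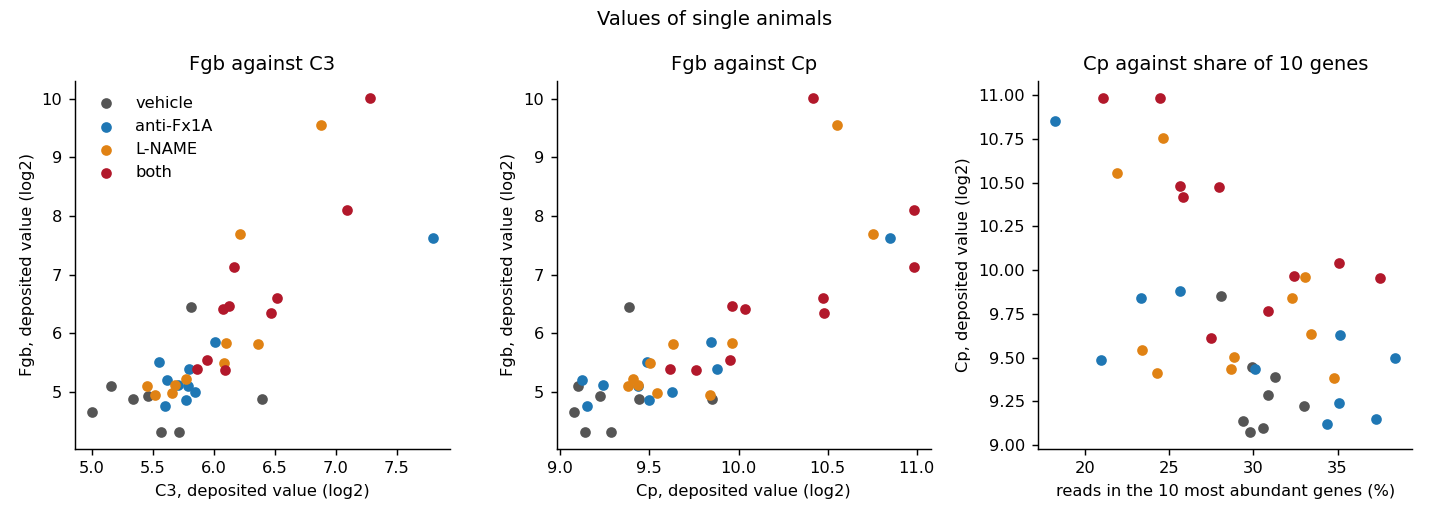
Single animals coloured by group (both, anti-Fx1A with L-NAME): Fgb against C3 and against Cp, in deposited log2 values, and Cp against the percentage of reads in the 10 most abundant genes of the library. Fgb tends to be higher where C3 or Cp is higher in the treated groups, with correlations of 0.75 and 0.72 over all 38 animals after centring on the group, while vehicle animal 3, highest of its group for C3 and Cp, had 4 Fgb reads, and Cp is lower where the 10 genes take more of the reads.

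A measure of the whole library moved with the genes. The relations below were computed for these genes only. Whether other genes go with the library measures as strongly was not tested. The relations therefore do not set these genes apart from the rest. The share of reads in each library's 10 most abundant genes lay between 28.1% and 32.99% with vehicle, 18.2% and 38.4% after anti-Fx1A, 21.9% and 34.8% after L-NAME and 21.1% and 37.5% after both. It was 18.2% in anti-Fx1A animal 10, 21.9% in L-NAME animal 25 and 21.1% in combination animal 35, the lowest of their groups. Centred on the group, the share correlated with Cp at r = -0.62 (rho -0.53), with Fgg at -0.57 (rho -0.49), with Fgb at -0.52 (rho -0.49) and with C3 at -0.52 (rho -0.36), with adjusted permutation p of r from 0.00072 to 0.0024 over 12 relations. The rho with C3 did not pass (adjusted permutation p = 0.0656). Without the 2 most extreme libraries r was -0.57, -0.56, -0.47 and -0.44. The number of genes with a read also went with them, at r from 0.39 for Fgg to 0.64 for Cp (adjusted permutation p from 0.00072 to 0.0336). Of these, rho passed for Cp (0.013) and not for C3 (0.110), Fgb (0.0656) or Fgg (0.0657), and r without the 2 most extreme libraries was 0.56 for Cp, 0.29 for C3, 0.33 for Fgb and 0.24 for Fgg. The depth itself did not go with any of the genes (r from -0.26 to 0.00066, lowest adjusted permutation p 0.171). With the share as a covariate, a fit added after the data were seen, the differences of the combination from vehicle were 1.62 log2 units for Fgb, 0.87 for Cp, 0.73 for C3 and 0.49 for Fgg, and all were called (limma adjusted p = 0.00841, 8.16e-05, 0.00517 and 0.0158). The part of library composition in the differences was not tested further.

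Among the 12599 genes tested, the likeness of pattern was measured by Pearson's r of deposited values over the 38 animals, which share libraries and groups. The gene most like Cp was ENSRNOG00000005695 (r = 0.92, and 0.88 after centring on the group), with a difference of 1.42 between the combination and vehicle (limma adjusted p = 0.00115). The gene most like Fgb was ENSRNOG00000002667 (r = 0.95, and 0.95 after centring), for which the difference of 0.78 did not pass (adjusted p = 0.0502). No table used here names these genes. The 4 genes ranked high in each other's lists without leading them. Fgb was the 7th most like Fgg (r = 0.81), C3 the 40th most like Fgg (0.75), Cp the 55th most like C3 (0.81) and Cp the 160th most like Fgb (0.80).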

How the data were processed

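Per the labels' protocols, 500 ng of kidney RNA from each of 38 rats entered a QuantSeq 3' mRNA kit. The deposited table holds log2 values, scaled by a factor for each library and variance-stabilised by the authors, as its name and values show. That factor did not follow total reads alone, so rpm and log2 values can order animals differently. Salmon 1.4.0, DESeq2 and edgeR 3.40.2 are listed, without roles, in the submitters' processing notes. Neither a genome build nor an annotation is stated (not given in the sources used here). A value of 4.31634, the lowest, is that of 0 reads; inverting the stabilising curve from it gave whole reads (within 0.05 of a whole read for 100% of values up to 10000 reads), whose sum was taken as depth. Limits from counts cover counting error only.

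Columns were matched by library name, and groups came from titles. limma 3.58.1 (R 4.3.3; trend and robust estimation) fitted 4 group means over genes with a mean of at least 5.32, which is 1 log2 unit above the lowest value. For each of 7 contrasts p-values were adjusted (Benjamini-Hochberg) over all genes, with a threshold of 0.05. The fit was tested on simulated data. Fgg lay under the limit and was fitted without it. Correlations used 100000 permutations within groups. The genes and lists were chosen with earlier results of these data known. All 4 genes were named by rule; 14 fixed gene lists were not used, since 0 identifiers matched a symbol. Alternatives were other scalings, filters, variance models, library weights, voom on recovered reads, fits of the groups compared and each animal left out; leaving out the 3 libraries of lowest weight or a run of anti-Fx1A animals, and the covariate, were added after the data were seen. Python 3.11.15 with scipy 1.17.1 and matplotlib 3.10.9 did the rest.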

Additional observations from a re-analysis of the deposited data

Results flagged for a closer look

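Of 16 combinations of gene and group, 6 had an animal whose gap to the next was wide against the range of its group (Dixon's 95% criterion, which chance passes in about 1 in 20 groups). Anti-Fx1A animal 10 was such an animal for all 4 genes, with log2 values of 7.79 for C3, 10.85 for Cp, 7.63 for Fgb and 5.87 for Fgg. Vehicle animal 7 was set apart for Fgb at 6.44, where the other vehicle animals lay between 4.32 and 5.10. Combination animal 29 was set apart for Fgg at 5.99, and the next highest was 5.19. The 4 values of anti-Fx1A animal 10 come from a single library and are not independent of each other. Its library had the lowest share of reads in the 10 most abundant genes of all 38, at 18.2%, and the part of this in the values was not tested.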

How the results depend on the processing

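Over 304 differences of the 4 genes under alternatives other than leaving out an animal, 273 kept their direction and side of the threshold, 13 newly passed, 1 was lost and 17 changed sign; over 1064 with an animal left out, these counts were 1033, 4, 1 and 26. The differences that newly passed, in log2 units, were as follows. Without the 3 libraries of lowest weight they were C3 (0.62), Fgb (1.54) and Fgg (0.42) for the combination against anti-Fx1A, and C3 (0.49) and Cp (0.55) for the combination against L-NAME. With library weights they were C3 (0.48) and Fgb (1.27) against anti-Fx1A. For L-NAME against vehicle, Fgg passed at 0.49 with only these groups, at 0.49 without anti-Fx1A animals 9 to 12 and at 2.15 with voom. With those 4 animals left out, C3 (0.64), Fgb (1.73) and Fgg (0.52) passed as well in the comparison of the combination with anti-Fx1A, where Cp (0.25) was lost without animals 13 to 18. Every sign change was in a difference that did not pass. For the interaction, C3 (-0.0044) became 0.0055 with median centring, 0.035 with quantile normalisation, 0.20 with library weights, 0.36 without the 3 libraries and 0.037 with the covariate, Fgb (0.26) became -0.15 with voom and Fgg (-0.20) became 0.036 without the 3 libraries. C3 for L-NAME against anti-Fx1A became -0.044 with the covariate. Without anti-Fx1A animals 9 to 12 the interaction became 0.22 for C3 and 0.025 for Fgg. Without animals 13 to 18 it became -0.24 for Cp and -0.39 for Fgb, L-NAME against anti-Fx1A became -0.31 for C3, -0.21 for Cp, -0.12 for Fgb and -0.11 for Fgg, and the combination against anti-Fx1A -0.039 for Fgg. The cause was not tested.

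With each animal left out, the combination against anti-Fx1A ranged from 0.31 to 0.62 for C3 and from 0.93 to 1.54 for Fgb. Fgg ranged from 0.45 to 0.64 for the combination against vehicle, from -0.041 to 0.15 against L-NAME, and from 0.41 to 0.55 for L-NAME against vehicle. The interaction ranged from -0.12 to 0.20 for C3 and from -0.10 to 0.66 for Fgb, and L-NAME against anti-Fx1A from -0.076 to 0.23 for C3, 0.082 to 0.33 for Cp and 0.14 to 0.78 for Fgb. The combination against L-NAME ranged from 0.40 to 1.16 for Fgb. The filter at 2 log2 units gave no value for C3 and Fgb, which lie under it.

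Counts of all genes called moved as well, most in the 4 comparisons listed next. With an animal left out they ran from 1382 to 1960 for L-NAME against vehicle (1780 with all animals). They ran from 4068 to 4907 for the combination against vehicle (4507) and from 1668 to 2816 for the combination against anti-Fx1A (2428). For anti-Fx1A against vehicle 139 became 50 with only these groups, 624 with library weights, 259 with the covariate and 85 to 294 with an animal left out. For the combination against L-NAME 151 became 95 with no filter, 990 with weights, 1155 without the 3 libraries, 338 with the covariate and 47 to 640. For L-NAME against anti-Fx1A 48 became 27, 22 with only these groups, 85 with the covariate and 20 to 61. For the interaction 0 became 3 with the stricter filter, 37, 41, 4 and 0 to 15. Without anti-Fx1A animals 9 to 12 these 4 counts were 368, 344, 137 and 36, and without animals 13 to 18 they were 1191, 143, 1264 and 395. With voom on recovered reads 4296 genes were called for the combination against vehicle, against 4507 on the deposited values. No paired analysis was possible because each animal has its own number. Fgg and the vehicle values of Fgb are limited by depth, at 0 to 6 reads in most libraries.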
